A study of Mus musculus with 23 samples.

Results

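The complement system was followed at the RNA level in the livers and tumors of mice with an orthotopic colon cancer. The set held 34 genes that encode complement components, their receptors and their regulators, chosen by symbol, of 48895 genes in the deposited table. Each of the 34 deposited gene positions (build mm10) overlaps the RefSeq gene of the same name. Poly(A) RNA was sequenced from 23 samples: the livers of 5 sham-operated mice without tumors (control liver), the livers of 9 tumor-bearing mice (pre-metastatic liver) and the primary colon tumors of the same 9 mice. All were male BALB/c mice aged 4 to 6 weeks at surgery, and no transgene or deletion is named in the labels. Tumors were raised by injecting CT26 cells, a mouse colon carcinoma line, under the serosa of the cecum, and sham mice received medium alone. Tissues were taken 3 weeks later, before metastases had formed in the liver, and whole tissue was used, so each tumor library holds CT26 cells together with host stroma and leukocytes. The tumors come from 1 cell line, so their level of a gene is that of a CT26 graft.

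Complement is a cascade of plasma proteins, most of them made by hepatocytes, that tags microbes and damaged cells. The classical pathway starts with C1q bound to antibody or debris and acts through the proteases C1r and C1s on C4 and C2. The lectin pathway starts with mannose-binding lectins, ficolins and collectins and their MASP proteases, and the alternative pathway amplifies C3 cleavage through factor B, factor D and properdin. All routes meet at C3 and then at C5 (gene Hc in the mouse), after which C6 to C9 assemble into a pore in the target membrane. Soluble and membrane-bound regulators hold the cascade in check, and leukocytes read its small fragments through receptors such as C3aR and C5aR1. C1q and properdin are made largely by macrophages and other myeloid cells rather than by hepatocytes.

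Library depth ran from 44587556 to 79773163 counts assigned to genes, and each library is 1 mouse, so tests below measure the spread between animals. Hepatocyte markers (Alb, Apoa1, Ttr, Serpina1a, Tat and Hnf4a) were present in all 14 livers, with summed levels of 40480 to 50540 RPKM (reads per kilobase of gene, scaled to library size) in control and 28400 to 63300 RPKM in pre-metastatic livers. They fell to between 5.69 and 249 RPKM in the tumors. The livers were not all taken in the same clock phase as read from 6 clock genes: 4 of 5 control livers and 5 of 9 pre-metastatic livers lay in the early phase, a split that comes from the data and not from the labels. On an index of these clock genes, mice M7 (-0.10) and M6 (-0.60) of the early phase lay nearest to the cut. The other early livers were at -1.01 or less. Late and early pre-metastatic livers overlapped in the RPKM of 34 of 34 complement genes, and 5.22% of all genes tested did not overlap between them.

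In the control livers C3, the central component, had the highest level of the set at 2049 ± 179 RPKM (SD, n = 5). Vitronectin (Vtn), a plasma protein that blocks the terminal pore, followed at 1432 ± 109 RPKM. The regulator clusterin (Clu) stood at 731 ± 106 RPKM and factor B (Cfb), the protease of the alternative pathway, at 416 ± 30.6 RPKM. C4b came next at 299 ± 50.4 RPKM and factor I (Cfi), which cleaves C3b and C4b, at 276 ± 31.3 RPKM, and these means lie within 1 SD of each other. C4bp, C8g, Mbl2, C8a and Hc lay between 212 and 163 RPKM with SDs of 10.4 to 50.4 RPKM. Their order does not exceed the spread between mice, except that C8g (191.4 to 215.7 RPKM) lay above Hc (116.3 to 190.5 RPKM) throughout. At the low end were the membrane regulators Cd55 (0.909 RPKM) and Cd46 (0.0594 RPKM), the receptors C5ar1 (0.7001 RPKM) and C3ar1 (0.402 RPKM), and ficolin B (Fcnb) at 0.0191 RPKM. Together the 34 genes took 2.05 to 2.37% of all gene counts in the control livers, 3.25 to 4.34% in the pre-metastatic livers and 0.174 to 0.353% in the tumors. C3 alone made up 44 to 52.1% of the complement counts in control livers and 40.1 to 54.9% in pre-metastatic livers.

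**Figure D1:**
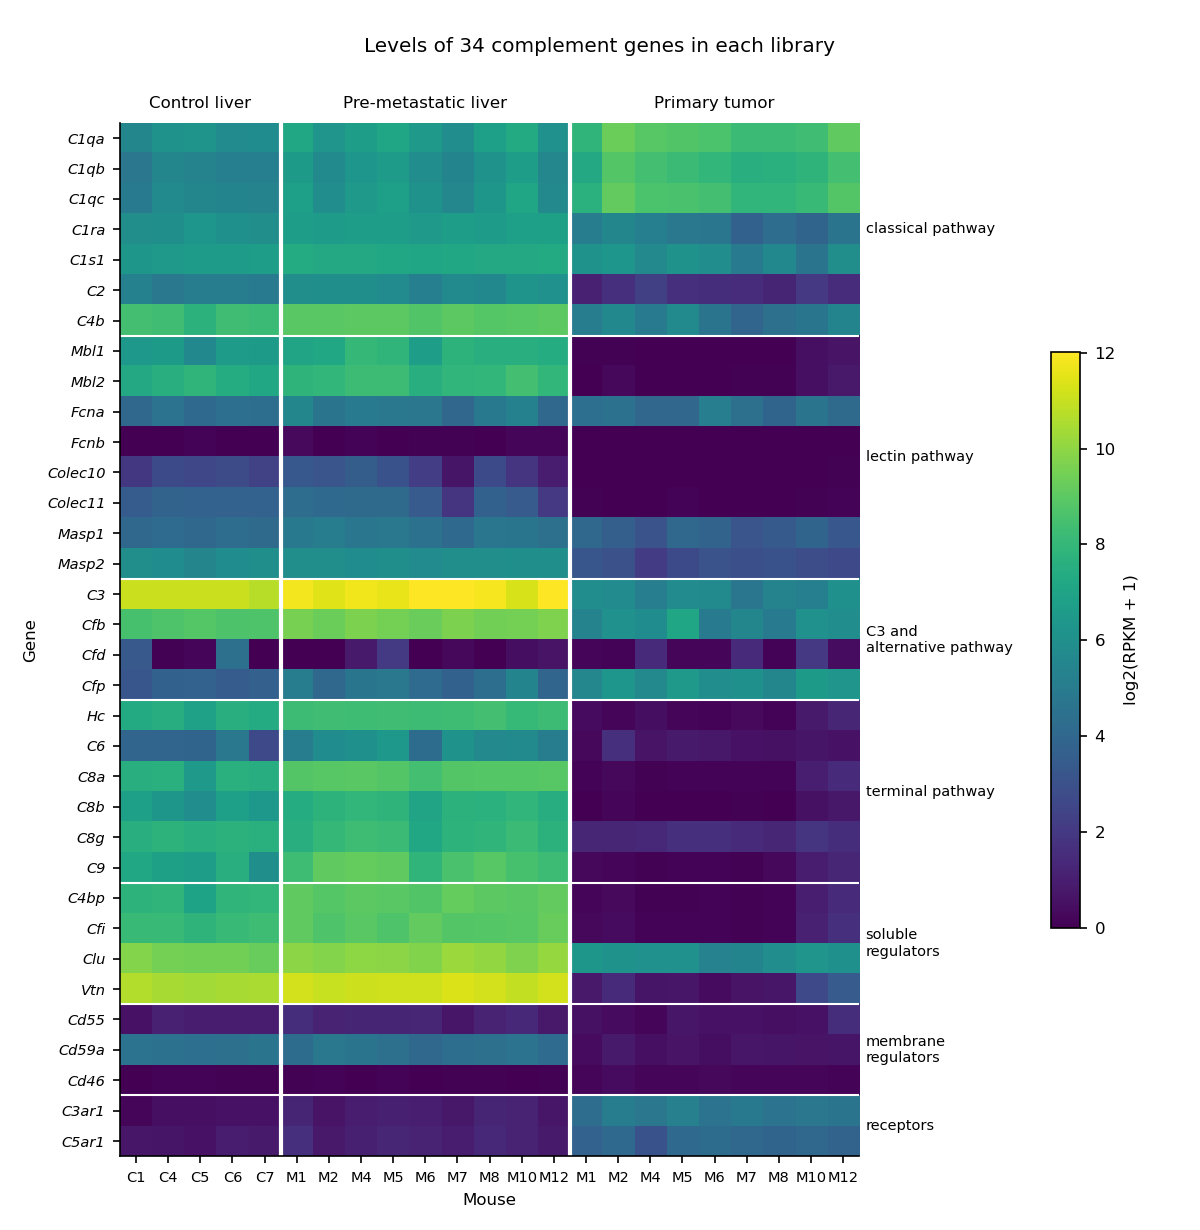
Level of each of the 34 complement genes (rows, grouped by role) in each of the 23 libraries (columns, named by mouse), as log2(RPKM + 1) on a color scale. C4bp, C8a, C9, Hc and Vtn are bright in all 14 livers and dark in the tumors, where the tumors of mice M10 and M12 are slightly brighter. C3, Cfb, Clu, C1s1 and C4b are less bright in the tumors than in the livers but not dark. The C1q chains, C3ar1 and C5ar1 are brightest in the tumors.

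The first comparison asked how the liver differs before metastasis, with pre-metastatic against control livers. Of 33 complement genes that passed the filter on low counts, 26 were higher in the pre-metastatic liver, 0 were lower and 7 were not called at an adjusted P under 0.05. Over all 16987 genes tested, 31% were called, 17.7% of them as higher and 13.3% as lower, where both shares are of the genes tested. The median log2 fold change was 0.88 over the 33 complement genes and 0.01 over all genes tested. By role, 7 of 7 classical pathway genes, 4 of 7 tested lectin pathway genes, 3 of 4 genes of C3 and the alternative pathway, 5 of 6 terminal pathway genes, 4 of 4 soluble regulators, 1 of 3 membrane regulators and 2 of 2 receptors were higher. In 14 of the 34 genes every pre-metastatic liver lay above every control liver, and in 0 every one lay below, beside 4.85% and 6.09% of all genes tested. In bulk tissue, fewer cells of a type and less RNA per cell cannot be told apart, and the same holds for more.

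Within the early clock phase, with 4 control and 5 pre-metastatic livers, 23 complement genes were called higher and 0 lower, against 14.7% and 10.9% of all genes tested there. In that phase 15 of the 34 genes were higher in each pre-metastatic liver than in every control liver and 0 were lower in each, against 9.45% and 11.3% of all genes tested. The late phase holds 1 control liver and gives no comparison. Beside these, the hepatocyte marker list had 0 of 6 genes higher and 2 lower: Hnf4a, a transcription factor of hepatocytes, went from 237 to 137 RPKM (log2 fold change -0.70, adjusted P = 0.0153), and Tat, an amino acid enzyme, from 997 to 291 RPKM (log2 fold change -1.74, adjusted P = 0.000241). Alb did not pass the test (adjusted P = 0.445).

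**Figure D2:**
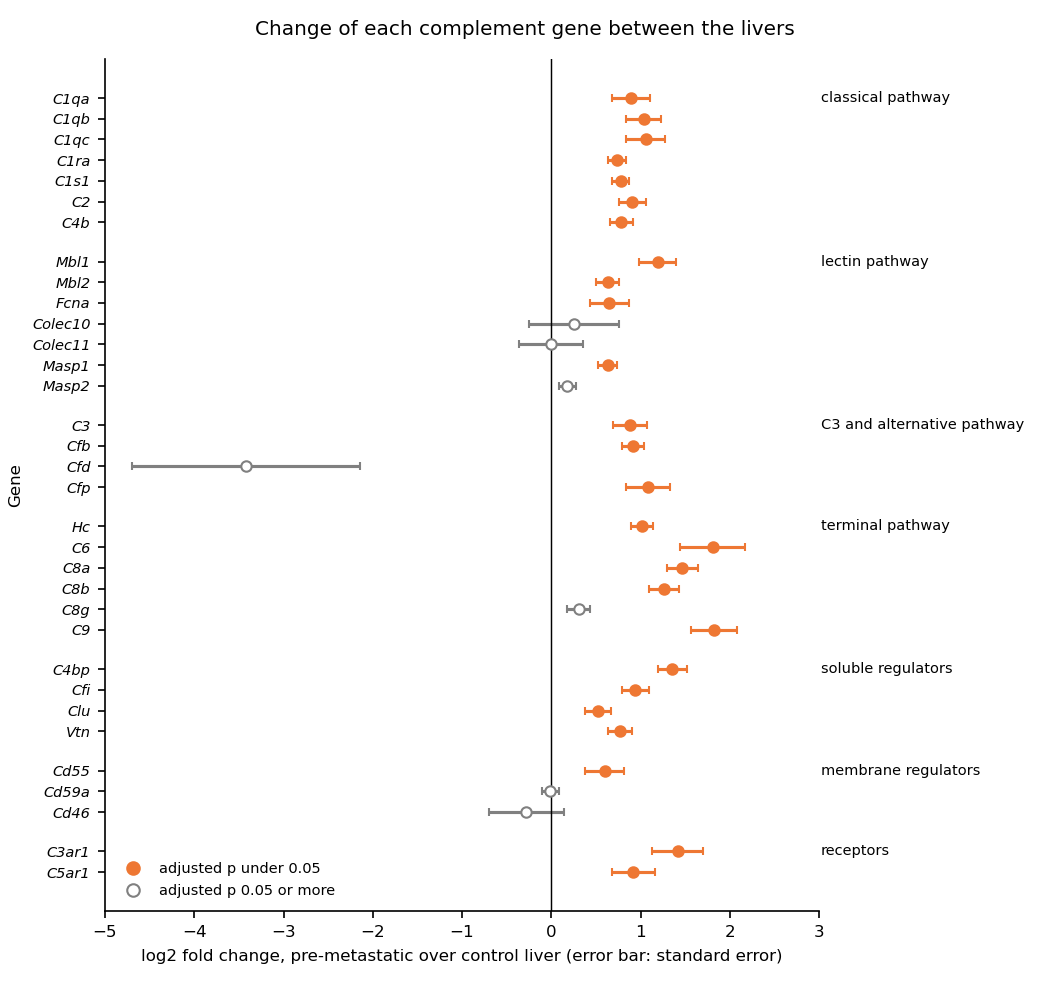
Log2 fold change of 33 complement genes between pre-metastatic and control liver (x axis; points with standard error), grouped by role, with filled points for an adjusted P under 0.05. The 26 filled points all lie right of 0, from 0.53 for Clu to 1.82 for C9, and Cfd stands apart at -3.42 with a wide error.

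The terminal pathway had the highest median log2 fold change of the roles, at 1.37. C9, which polymerizes into the wall of the pore, stood at 144, 114, 101, 191 and 61.8 RPKM in control mice C1, C4, C5, C6 and C7. In the pre-metastatic livers it ranged from 235 (mouse M6) over a median of 381 to 578 RPKM (mouse M4). The groups did not overlap, and C9 rose 3.54-fold (log2 fold change 1.82 ± 0.26 SE, adjusted P = 0.000153). Complement C6, the first protein to bind C5b, stood at 14.4, 14.4, 13.9, 27.3 and 5.22 RPKM in the control livers, in the same order of mice. It ranged from 17.8 over 51.1 to 84.2 RPKM in the pre-metastatic livers. Only mouse M6 reached down into the control range, below control mouse C6, and the gene rose 3.50-fold (log2 fold change 1.81 ± 0.36 SE, adjusted P = 0.00166).

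C8 is built from alpha, beta and gamma chains, each with its own gene. C8a stood at 194, 197, 90.1, 196 and 180 RPKM in the control livers and ranged from 347 over 459 to 490 RPKM in the pre-metastatic livers, without overlap. It rose 2.77-fold (log2 fold change 1.47 ± 0.17 SE, adjusted P = 5.16e-05), and C8b, from 89.2 ± 21.6 to 205 ± 38.5 RPKM, rose 2.40-fold (1.26 ± 0.17, adjusted P = 0.000113). C8g, which encodes the lipocalin-like gamma chain, did not pass the test: it was 202 ± 10.4 RPKM in control and 238 ± 55.8 RPKM in pre-metastatic livers (log2 fold change 0.31 ± 0.13 SE, adjusted P = 0.0837), and without mouse M6, the lowest at 142 RPKM, its adjusted P was 0.0175. The ratio of C8a to C8g in RPKM was therefore 0.467 to 1.01 across control livers and 1.51 to 2.44 across pre-metastatic livers. Hc, the gene of C5, stood at 162, 177, 116, 191 and 169 RPKM in the control livers and between 268 and 346 RPKM, with a median of 310 RPKM, in the pre-metastatic livers. It rose 2.02-fold without overlap (1.01 ± 0.12, adjusted P = 6.62e-05).

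C3 itself stood at 2140, 2142, 2116, 2117 and 1730 RPKM in the 5 control livers and ranged from 2503 (mouse M10) over 3627 to 4175 RPKM (mouse M6) in the pre-metastatic livers. The groups were apart and C3 rose 1.84-fold (adjusted P = 0.00317). Factor B stood between 372 and 458 RPKM in control and between 629 and 840 RPKM in pre-metastatic livers, and rose 1.89-fold without overlap (0.92 ± 0.12, adjusted P = 0.000112). The regulators that act on C3b and C4b rose with them. C4bp, the alpha chain of the C4b-binding protein, stood at 217, 232, 125, 234 and 252 RPKM in the control livers and from 439 over 507 to 574 RPKM in the pre-metastatic livers, a 2.56-fold rise (1.36 ± 0.16, adjusted P = 5.16e-05). Its ratio to C4b, the component it binds, was 0.582 to 0.854 in control and 0.939 to 1.13 in pre-metastatic livers. Factor I rose 1.92-fold without overlap (0.94 ± 0.15, adjusted P = 0.000419), from 276 ± 31.3 to 495 ± 65.2 RPKM. Vitronectin went from 1432 to 2296 RPKM and clusterin from 731 to 994 RPKM, both called, although clusterin was not within the early phase (log2 fold change 0.49 against 0.53, adjusted P = 0.0544).

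**Figure D3:**
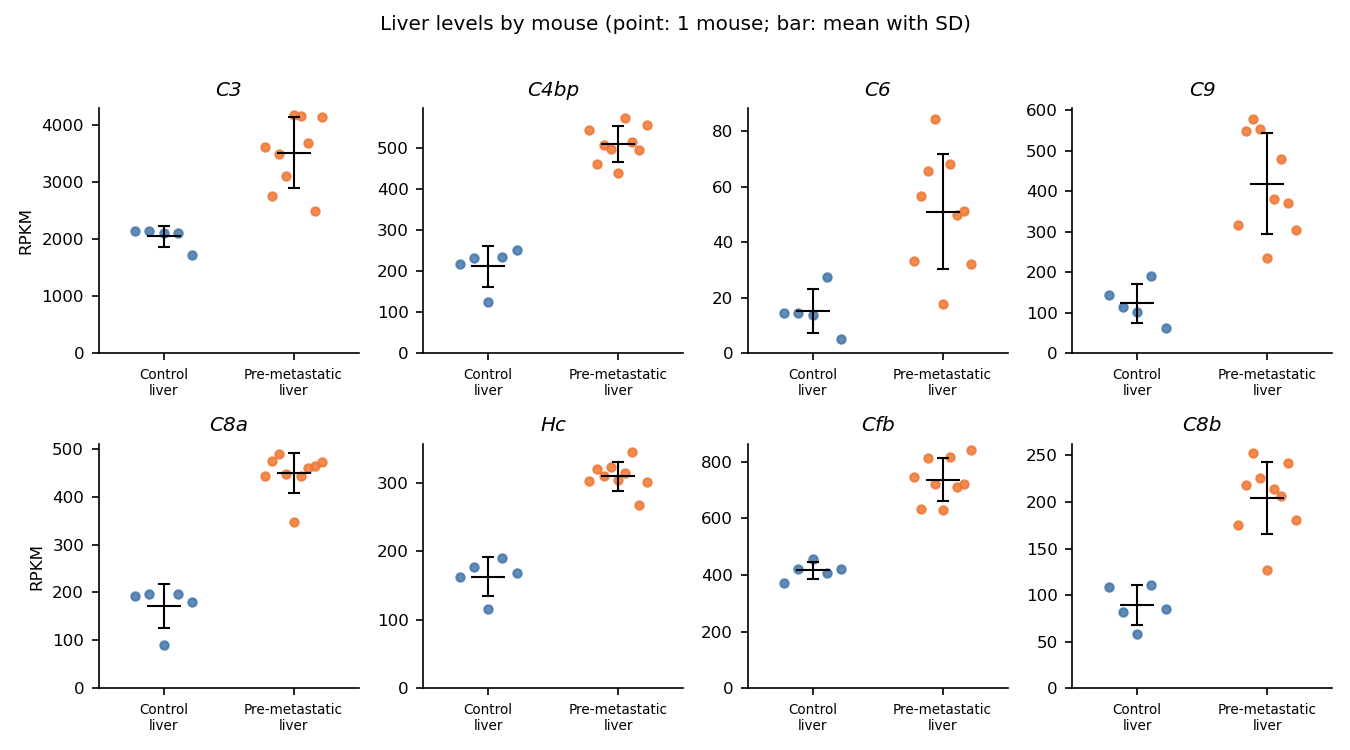
RPKM of 8 complement genes in each control (blue) and pre-metastatic (orange) liver, with the mean and SD as bars on axes that start at 0. C3, C4bp, C9, C8a, Hc, Cfb and C8b are without overlap between the groups, and in C6 the lowest pre-metastatic liver (17.8 RPKM) lies below the highest control (27.3 RPKM).

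Since these genes rose together, the bases before their start sites were searched. The RefSeq promoter table (build GRCm38.p6) holds 26 of the 34 genes in 28 windows, counting the 250 bases before each start listed there. The letters sought, on both strands, were TTNNGNAAT, a form of the C/EBP site, TTCNNNGAA, the core of a STAT site, which reads the same on both strands, and a 10-base form of the NF-kB site. Windows of C1ra, C1s1, C3, C6, C9 and Fcna, 6 of the 26 genes, hold the C/EBP letters, in 7 of 28 windows, beside 10.2% of 32851 promoter windows of all genes. The STAT letters are in the windows of C8a, Colec11 and Masp2, 3 of 26 genes, beside 7.02% of all windows, and the NF-kB letters are in 0 of 26, beside 1.21%. By the deposited gene positions, the windows of Fcna and Masp2 lie wholly within the gene, and so does the match in C6. This leaves C1ra, C1s1, C3 and C9 with the C/EBP letters before the deposited gene. The windows of C1s1 overlap each other and share a match, so they are not separate finds. A match is a run of letters and not a measured site. The 4 windows below are of liver-made genes that rose and show, 5′ to 3′ on the gene's strand and with the C/EBP letters in capitals, 3 windows with a match and 1, that of C8b, without any. They lie at chr17:57228137-57228386 (minus strand, C3), chr15:6445096-6445332 (plus strand, C9, shortened to the 237 bases before the deposited gene), chr6:124512371-124512620 (plus strand, C1ra) and chr4:104766067-104766316 (plus strand, C8b).
C3: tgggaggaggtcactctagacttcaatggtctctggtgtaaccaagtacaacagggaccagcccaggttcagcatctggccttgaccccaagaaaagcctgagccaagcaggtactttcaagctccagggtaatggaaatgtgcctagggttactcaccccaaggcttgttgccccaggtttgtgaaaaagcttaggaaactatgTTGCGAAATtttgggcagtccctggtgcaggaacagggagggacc
C9: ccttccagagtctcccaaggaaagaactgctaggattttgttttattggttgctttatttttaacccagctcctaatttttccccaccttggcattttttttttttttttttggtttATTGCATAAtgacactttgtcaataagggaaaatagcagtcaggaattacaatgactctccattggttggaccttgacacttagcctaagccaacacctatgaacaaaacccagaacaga
C1ra: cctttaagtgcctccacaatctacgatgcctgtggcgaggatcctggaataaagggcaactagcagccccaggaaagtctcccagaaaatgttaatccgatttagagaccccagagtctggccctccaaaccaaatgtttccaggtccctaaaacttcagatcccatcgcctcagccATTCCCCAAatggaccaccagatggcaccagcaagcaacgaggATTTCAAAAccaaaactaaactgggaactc
C8b: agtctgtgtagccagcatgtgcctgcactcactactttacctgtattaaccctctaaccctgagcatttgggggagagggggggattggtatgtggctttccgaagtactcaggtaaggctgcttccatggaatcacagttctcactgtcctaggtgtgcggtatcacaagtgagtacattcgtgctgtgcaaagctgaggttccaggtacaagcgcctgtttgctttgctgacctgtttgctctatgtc
In these windows the C/EBP letters begin 45 bases before the end of the window for C3, 120 bases for C9, and 73 and 30 bases for C1ra.

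The liver-made genes of the classical pathway were higher by a narrow span, with C1ra, C1s1, C2 and C4b between 1.66-fold and 1.88-fold. C1s1, the protease that cleaves C4 and C2, stood at 82.3 to 103 RPKM in control and 136 to 168 RPKM in pre-metastatic livers, without overlap. C1ra stood at 60.6 to 77.9 against 88.7 to 113 RPKM and C4b at 214 to 342 against 427 to 517 RPKM, also without overlap. C2 overlapped through mouse M6, whose 35.4 RPKM lay below the 37.6 RPKM of control mouse C1. Several of these genes have a near copy next to them on the chromosome, and how reads that fit both were counted is not given in the sources used here. Of the stretches of 50 bases in the transcripts of each gene (GENCODE M21), 50.8% of those of C1ra occur in another gene's transcripts too, mostly C1rb, and 34.6% of those of C4b occur in C4a and 21.8% of those of C1s1 in C1s2. C1rb and C1s2 were called higher by similar amounts (log2 fold changes 0.83 and 0.88), and C4a by 0.98, so the values of a pair cannot be fully separated. Cfb (chr17:34856374-34862514 in mm10) and C2 (chr17:34862602-34882100) are neighbours and share 73% and 38.7% of such stretches with transcripts of Gm20547, a read-through model that spans both.

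C1q, built from the products of C1qa, C1qb and C1qc, is the recognition unit of the classical pathway and comes from macrophages. The 3 genes lie side by side on chromosome 4 in build mm10, C1qb at chr4:136880145-136886177, C1qc at chr4:136889802-136892932 and C1qa at chr4:136895916-136898844. C1qc rose 2.08-fold (1.06 ± 0.22, adjusted P = 0.00216) and C1qb 2.05-fold (1.03 ± 0.20, adjusted P = 0.00131). C1qa stood at 45.6, 71.9, 72.9, 54.2 and 56.6 RPKM in the control livers and from 58.7 (mouse M7) over 105 to 164 RPKM (mouse M10) in the pre-metastatic livers. All 3 overlapped between the groups, with M7 and M12 at the low end and M10, M1 and M5 at the high end of each chain. The ratio of C1qb to C1qc lay between 0.859 and 0.898 in control and between 0.786 and 0.938 in pre-metastatic livers. That of C1qa to C1qc was 1.30 to 1.60 in control livers, 1.21 to 1.34 in pre-metastatic livers and 1.13 to 1.23 in the tumors, and that of C1qa to C1qb was 1.501 to 1.79 in control and 1.33 to 1.57 in pre-metastatic livers. C1qa was not called once the 3 livers with adipocyte markers described below were left out (log2 fold change 0.74 against 0.89, adjusted P = 0.0868), a fit that keeps 3 control livers.

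Macrophage markers moved with C1q. Of the 6 on the list (Adgre1, Cd68, Csf1r, Clec4f, Marco and Timd4), 5 were higher, none was at 0 throughout, and their summed level went from 35.9 to 74.2 RPKM in control to 69.1 to 208 RPKM in pre-metastatic livers. Clec4f, a marker of Kupffer cells, the resident macrophages of the liver, stood at 25.3 to 47.7 RPKM in control and 45.4 to 122 RPKM in pre-metastatic livers, and was highest in mouse M10 and lowest in M7. The ratio of C1qa to Clec4f was 1.27 to 1.94 in control and 1.05 to 1.61 in pre-metastatic livers, so the ranges of the ratio overlapped. The part of macrophage number in the C1q values was not tested beyond this ratio.

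Properdin (Cfp), which stabilizes the alternative pathway convertase and is made by myeloid cells, rose 2.12-fold (1.09 ± 0.25, adjusted P = 0.00437). It stood at 8.35, 12.5, 12.9, 10.5 and 11.8 RPKM in the control livers and from 12.1 over 19.3 to 42.4 RPKM in the pre-metastatic livers. Mouse M10 was highest and M7 lowest, as for C1q, and the ratio of Cfp to Clec4f was 0.247 to 0.342 in control and 0.240 to 0.347 in pre-metastatic livers. Without the 3 livers with adipocyte markers its log2 fold change was 0.97 and its adjusted P 0.0677, with 3 control livers left. The receptors of the fragments C3a and C5a were low but higher in the pre-metastatic livers. C3ar1 stood at 0.154, 0.392, 0.419, 0.524 and 0.521 RPKM in control and between 0.569 and 1.41 RPKM in pre-metastatic livers, without overlap, a 2.68-fold rise (1.42 ± 0.29, adjusted P = 0.00179). C5ar1 rose 1.89-fold (0.92 ± 0.24, adjusted P = 0.00911), from 0.7001 ± 0.149 to 1.25 ± 0.435 RPKM, with overlap and with mouse M1 highest at 2.17 RPKM.

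Neutrophil and monocyte markers were higher in the same livers. Of 5 tested neutrophil markers 4 were called higher, and the summed level of the 6 listed went from 6.24 to 17.7 RPKM in control to 6.76 to 118 RPKM in pre-metastatic livers. Mouse M1, highest for C5ar1, was also highest for S100a8, a neutrophil granule protein, at 51.9 RPKM, where control livers held 1.69 to 7.23 RPKM. The same mouse was highest for S100a9, Ly6g and Mmp8. Retnlg and Cxcr2 were instead highest in mouse M6, at 3.80 and 0.875 RPKM against 1.785 and 0.425 RPKM in M1. C5ar1 was at 1.22 RPKM in M6. Of 4 monocyte markers 3 were called higher, with summed levels of 1.49 to 2.54 RPKM in control and 4.62 to 10.8 RPKM in pre-metastatic livers. Fcnb, a ficolin of neutrophils and monocytes, had 0 to 9 counts in control and 0 to 23 counts in pre-metastatic livers and was not tested.

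**Figure D4:**
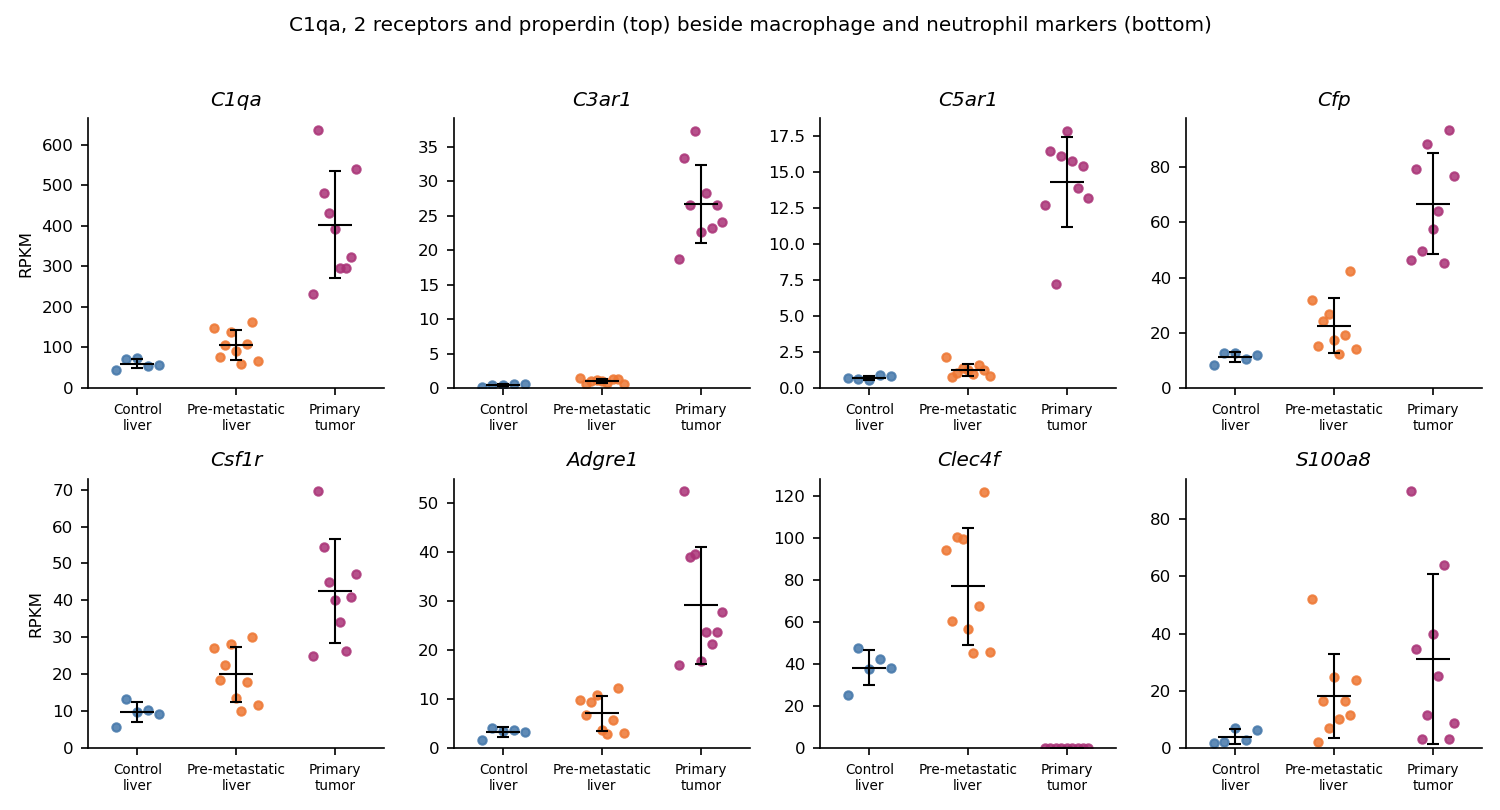
RPKM of C1qa, C3ar1, C5ar1 and Cfp (top) and of the macrophage markers Csf1r, Adgre1 and Clec4f and the neutrophil marker S100a8 (bottom) in each library of the 3 tissues, with mean and SD as bars. C1qa, C3ar1, C5ar1 and Cfp are without overlap between tumor and pre-metastatic liver, while Clec4f is near 0 in all 9 tumors.

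The lectin pathway was split by gene. Mbl1, a mannose-binding lectin, stood at 84.7, 93.2, 48.3, 99.4 and 91.5 RPKM in the control livers and from 103 over 184 to 258 RPKM in the pre-metastatic livers, and rose 2.29-fold without overlap (1.19 ± 0.21, adjusted P = 0.000758). Mbl2, Masp1 and ficolin A (Fcna) rose by between 1.55-fold and 1.57-fold, each with overlap. The call of Fcna, a ficolin of macrophages, was lost on the RPKM scale (adjusted P of 0.102 to 0.175) and when any of control mice C1, C5, C6 and C7 or mouse M10 was left out (adjusted P of 0.0506 to 0.0785). It was also lost within the early phase (adjusted P = 0.0662), with clock phase as a covariate (adjusted P = 0.0567) and without the livers with adipocyte markers (adjusted P = 0.144). In all, 11 of 24 alternatives lost it. Masp2, the protease that cleaves C4 and C2 in this pathway, was not called: it was 56.3 ± 7.69 RPKM in control and 60.2 ± 2.49 RPKM in pre-metastatic livers (log2 fold change 0.18 ± 0.10 SE, adjusted P = 0.173).

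The collectins Colec10 and Colec11 were not called and varied widely in the tumor-bearing mice. Colec11 stood at 10.3, 13.3, 12.6, 12.8 and 12.7 RPKM in the control livers and at 18.7, 16.6, 17.0, 17.0, 10.01, 2.63, 12.5, 9.85 and 3.04 RPKM in mice M1, M2, M4, M5, M6, M7, M8, M10 and M12. Colec10 was likewise lowest in M7 (0.627 RPKM) and M12 (0.950 RPKM) and highest in M4 (10.7 RPKM), against 2.83 to 5.85 RPKM in control livers. Both genes were thus above all controls in some pre-metastatic livers and below all controls in others, and their adjusted P was 0.734 (Colec10) and 0.996 (Colec11). Lrat, the enzyme by which hepatic stellate cells store vitamin A, was lowest in the same pair of livers, at 0.382 RPKM in M7 and 0.398 RPKM in M12, against 0.897 to 3.47 RPKM in the other pre-metastatic livers. Of the 5 fibroblast and stellate markers, Col1a1 and Col3a1 were called higher and Lrat, Dcn and Pdgfrb were not called, and none was at 0 throughout. Without these 2 livers the log2 fold changes were 0.56 for Colec10 and 0.27 for Colec11, with adjusted P of 0.164 and 0.167. Dcn and Pdgfrb were also lowest in M7 and M12, but Col1a1 and Col3a1 were lowest in M10 (2.016 and 6.363 RPKM). The endothelial markers Kdr, Pecam1, Cdh5 and Lyve1 were lowest in M7 and M12 too. Kdr was at 1.15 RPKM in M7 and 2.25 RPKM in M12, Pecam1 at 1.88 and 2.19 RPKM and Cdh5 at 1.94 and 2.44 RPKM. The low values were thus not particular to stellate markers. The endothelial marker Stab2 was lowest in M7 (5.119 RPKM) but lower in M8 (5.688 RPKM) than in M12 (6.314 RPKM). The part of stellate or endothelial cell content in the levels of Colec10 and Colec11 was not tested.

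Factor D (Cfd), the serine protease that cleaves factor B and is made mainly by adipocytes, was high in 3 livers. It stood at 9.43, 0.0379, 0.108, 20.4 and 0.0196 RPKM in control mice C1, C4, C5, C6 and C7. In the pre-metastatic livers mouse M5 had 3.11 RPKM and the other 8 had at most 0.838 RPKM. The adipocyte marker Adipoq was at 2.04 RPKM in C1, 2.65 RPKM in C6 and 1.49 RPKM in M5 and at most 0.249 RPKM in the other livers, and Plin1 was highest in the same 3 livers. The log2 fold change of Cfd was -3.42 ± 1.28 SE (adjusted P = 0.0535), and its adjusted P was 0.0214 to 0.0427 when control mouse C4, C5 or C7 or mouse M5 was left out and 0.255 without control mouse C6. The summed level of the 5 adipocyte markers was 3.60 to 24.3 RPKM in control and 0.371 to 4.65 RPKM in pre-metastatic livers. Of the 5 markers only Cidec, which hepatocytes with stored fat also make, had enough counts to be tested, and it was lower in the pre-metastatic livers (14.7 against 1.26 RPKM, log2 fold change -3.48, adjusted P = 6.60e-05). Without the 3 livers C1, C6 and M5, 22 complement genes were called higher and 0 lower, against 10% and 6.27% of all genes tested.

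Of the membrane regulators, Cd55, which speeds the decay of convertases, was 0.909 ± 0.242 RPKM in control and 1.30 ± 0.392 RPKM in pre-metastatic livers (adjusted P = 0.0494). The groups overlapped and the call was lost in 18 of 24 alternatives, with an adjusted P of 0.0557 to 0.130 when control mouse C1, C5, C6 or C7 or mouse M1, M2, M4, M5, M6, M8 or M10 was left out. Cd59a, which blocks the terminal pore on host cells, was 21.7 ± 1.62 RPKM in control and 20.5 ± 3.62 RPKM in pre-metastatic livers (log2 fold change -0.01 ± 0.10 SE, adjusted P = 0.957). Cd46, a cofactor for factor I, had 12 to 41 counts in control and 3 to 34 counts in pre-metastatic livers (log2 fold change -0.28 ± 0.42 SE, adjusted P = 0.647). Its row overlaps that of Cr1l on the same strand of chromosome 1, although 0% of the 50-base stretches in its transcripts occur in those of another gene.

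Complement and complement-binding genes outside the set were read from a further list of 27, of which 26 are in the table and 24 were tested. Of these, 16 were called higher and 1 lower, C1qbp, a mitochondrial protein named for its binding to C1q (log2 fold change -0.36, adjusted P = 0.0139). Itgam, Itgax and Itgb2 encode the leukocyte integrin subunits of complement receptors CR3 and CR4. Itgam rose by a log2 fold change of 2.75 (0.247 to 1.54 RPKM), Itgax by 1.93 (0.0921 to 0.342 RPKM) and their partner Itgb2 by 1.65 (1.79 to 5.32 RPKM). The others named were Cr2 (2.10, at 0.0449 RPKM or less on average), the convertase inhibitor Susd4 (1.40), the terminal component C7 (1.04, from 0.377 to 0.746 RPKM) and Vsig4, the complement receptor of Kupffer cells (1.02).

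The second comparison set the primary tumors against the livers of the same 9 mice. The main fit did not pair tumor and liver by mouse, and a fit with the mouse as a block is given below. Of 33 complement genes tested, 25 were lower in the tumor, 5 were higher and 3 were not called. Of the 25, Mbl1, Mbl2, C8b, Colec10 and Colec11 passed the filter on low counts only through the livers, where they are high, and could only come out lower. Among the 27 genes that did not pass through 1 tissue alone, 20 were lower and 5 higher. Over all 19749 genes tested 83.3% were called, with 43.8% higher and 39.5% lower, and the median log2 fold change was -4.84 over those 27 complement genes and 0.13 over all genes. In 23 of the 34 genes every tumor lay below every liver in RPKM and in 6 every one lay above, beside 14.2% and 52.9% of all genes tested. The 23 include Mbl1, Mbl2, C8b, Colec10 and Colec11, and so do the counts of lower complement genes in the alternatives below. The values depended on the scale here, and folds upward from edgeR's scaling were smaller than ratios of mean RPKM (1.68 against 3.80 for C1qa). The 10 most abundant genes took 15.0 to 27.9% of counts in these livers and 4.79 to 5.74% in the tumors, and the part of this in the gap was not tested. On log2(RPKM + 1) with limma, 67.6% of genes were called higher and 21.1% lower, the median of all genes was 0.50, and 7 complement genes were higher and 24 lower. The genes added were Cfp and Cd46, and the one lost was Fcna.

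The lectins Mbl1 and Mbl2, C4bp, C8a, C8b, C9, Cfi, Vtn, Hc, Colec10 and Colec11 were near absent from the tumors. The genes that passed the filter through the livers alone are given by their counts. Mbl1 had 0 to 52 counts in the tumors against 10126 to 30336 in the livers, and Mbl2 0 to 46 against 11939 to 22276. C8b had 2 to 85 counts in the tumors, Colec10 0 to 11 and Colec11 0 to 8. C4bp was 0.386 ± 0.587 RPKM in the tumors, where it had 6 to 181 counts, against 509 ± 43.6 RPKM in the livers (-11.51 ± 0.85, adjusted P = 1.20e-10). The log2 fold changes of C9 (-11.33 ± 0.79, adjusted P = 4.45e-11), C8a (-11.33 ± 0.92, adjusted P = 5.37e-10) and Cfi (-11.20 ± 0.88, adjusted P = 3.45e-10) were alike within their errors. Those of Vtn (-11.14 ± 0.86, adjusted P = 2.36e-10) and Hc (-10.73 ± 0.66, adjusted P = 6.83e-12) lay close to them. The hepatocyte markers fell by the same order, Alb by -10.92 and Apoa1 by -10.89.

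C3, C8g and complement C6 kept between 0.478 and 3.94% of the matched liver level. C3 stood at 57.6, 55.3, 34.4, 55.0, 53.9, 25.4, 40.9, 35.0 and 65.7 RPKM in the tumors of M1, M2, M4, M5, M6, M7, M8, M10 and M12, or 0.610 to 2.003% of the liver of the same mouse (log2 fold change -7.43 ± 0.29 SE, adjusted P = 8.58e-15). The tumors were close together and all far below the livers. C8g was 1.80 ± 0.368 RPKM in the tumors, at 94 to 215 counts (-8.21 ± 0.18, adjusted P = 1.08e-17). The ratio of C8a to C8g there was 0.0258 to 0.936. The C8g row overlaps that of Fbxw5 on the opposite strand, and the row of Masp2 overlaps that of Tardbp in the same way. In all, 13 of the 34 rows overlap another row. Whether counting used strand is not given in the sources used here, and the part of reads from overlapping genes was not tested. Complement C6 was 0.732 ± 0.562 RPKM (-7.29 ± 0.42, adjusted P = 2.47e-12). Between 1.58 and 18.6% of the liver level remained for Cd59a, C2, C4b, Clu, Cfb and Masp2, with log2 fold changes from -6.42 to -4.45.

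Nearer to the liver level were C1ra (-3.18), C1s1 (-2.68), Masp1 (-2.28), Cd55 (-2.28) and Fcna (-1.64). C1s1 stood at 23.9 to 77.95 RPKM in the tumors, 15.8 to 50.6% of the matched liver, and Masp1 at 29.9 to 60.4%. Fcna was 20.1 ± 6.34 RPKM in tumors and 27.7 ± 9.71 RPKM in livers, with overlap, and on the RPKM scale its call was lost (adjusted P of 0.0526 to 0.0566). Cd55 overlapped through the tumor of mouse M12, which held 1.99 RPKM where the other 8 tumors held at most 0.644 RPKM, and its log2 fold change without that mouse was -2.85. Serping1, the C1 inhibitor, was 35.2 RPKM in the tumors, or 3.12 to 11.6% of the matched liver.

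Receptors and C1q went the other way. C3ar1 stood at 18.8, 33.3, 26.6, 37.3, 22.6, 28.3, 23.2, 26.6 and 24.1 RPKM in the tumors, in the order of mice above, against 0.569 to 1.41 RPKM in the livers. The log2 fold change was 3.55 ± 0.18 SE (adjusted P = 4.84e-13), 11.7-fold, while the ratio of mean RPKM was 26.6. C5ar1 was higher by a log2 fold change of 2.33 ± 0.19 (adjusted P = 6.19e-10), with 7.24 RPKM in the tumor of M4 and 12.7 to 17.9 RPKM in the others. The C1q chains were higher by 0.87 ± 0.21 (C1qc, adjusted P = 0.000728), 0.75 ± 0.20 (C1qa, adjusted P = 0.00222) and 0.74 ± 0.20 (C1qb, adjusted P = 0.00211). C1qa alone reached 403 ± 131 RPKM in the tumors against 106 ± 36.8 RPKM in the livers and was higher in the tumor of 9 of 9 mice, at 158 to 823% of the matched liver. It was the most abundant complement transcript per length in the tumors, ahead of C1qc at 345 ± 116 and C1qb at 270 ± 93 RPKM, an order that held in each of the 9 tumors.

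Macrophage markers in the tumors differed in kind from those of the liver. Adgre1 and Cd68 were called higher (log2 fold changes 0.87 and 1.78), Csf1r was not called (adjusted P = 0.742), and Clec4f, Marco and Timd4 were lower, Clec4f being at 0.268 RPKM or less in each tumor. The ratio of C1qa to Adgre1 was 10.9 to 21.98 in the tumors and 11.2 to 24.9 in the pre-metastatic livers. Such a ratio depends on the marker: the log2 fold change of C1qa (0.75) lay below that of Cd68 (1.78) and above that of Csf1r (-0.08). Vsig4 was lower in the tumors by a log2 fold change of -7.09, and Itgam, Itgb2 and Itgax were higher by 3.90, 2.35 and 2.04. Of 5 tested neutrophil markers 1, Mmp8, was called higher. Of 4 monocyte markers 3 were called higher, with log2 fold changes of 2.51 (Ccr2), 3.18 (Ly6c2) and 2.59 (Plac8), and their summed level was 65.6 to 170 RPKM in the tumors against 4.62 to 10.8 RPKM in the livers. The part of monocyte content in the levels of C3ar1 and C5ar1 was not tested.

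Cfp was 66.8 ± 18.3 RPKM in the tumors and 22.6 ± 9.87 RPKM in the livers, without overlap, yet was not called (log2 fold change 0.39 ± 0.22 SE, adjusted P = 0.0972). It was called with upper-quartile scaling (adjusted P = 0.0218), on the RPKM scale, without mouse M1 (adjusted P = 0.0410) or M10 (adjusted P = 0.0256), and with the mouse as a block (adjusted P = 0.0498). With that block 6 complement genes were higher and 25 lower, beside 43.9% and 38.8% of all genes tested. Cd46 had 33 to 130 counts in the tumors and was not called (0.52 ± 0.33, adjusted P = 0.141). Cfd was not called (-0.56 ± 0.96, adjusted P = 0.592) and its direction reversed on the RPKM scale, where the means were 0.804 RPKM in tumors and 0.571 RPKM in livers. Fcnb had 0 to 4 counts in the tumors.

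The tumors of mice M10 and M12 stood apart in the liver-made genes. Alb, the most abundant hepatocyte transcript, was at 86.4 and 173 RPKM there and at 2.97 to 15.0 RPKM in the other 7 tumors, which is 0.254 and 0.419% of the matched liver against 0.00841 to 0.0727%. C4bp was at 0.205 and 0.310% of the matched liver in M10 and M12 and at 0.0108 to 0.0505% in the others. Vtn was at 0.271 and 0.416% against 0.0126 to 0.0893%, and C9 at 0.258 and 0.467% against 0.00700 to 0.0570%. Hc was at 0.302 and 0.485% against 0.0254 to 0.122%, so that no other tumor reached these 2 for any of the 4 genes. C3, by contrast, was at 1.40 and 1.58% in M10 and M12 and 0.610 to 2.003% in the others, and C1s1 at 15.8 and 37.0% against 20.2 to 50.6%. Without these 2 mice the log2 fold change of C4bp was -13.36 and of C9 -13.08. The part of hepatocyte RNA in these 2 tumors was not tested beyond these percentages.

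**Figure D5:**
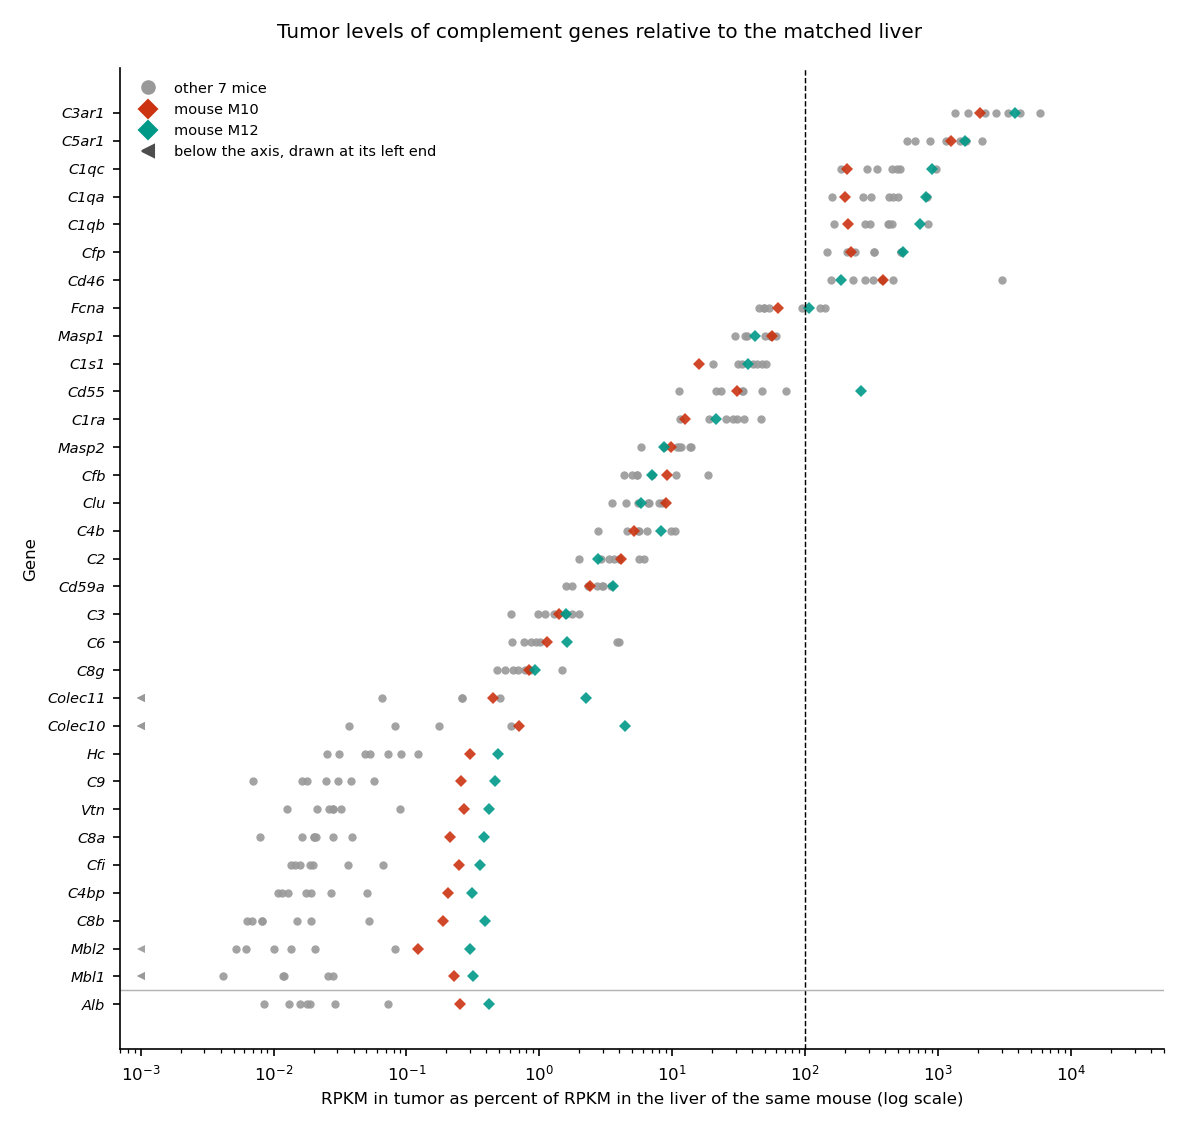
RPKM of each complement gene in the tumor as a percent of the liver of the same mouse, on a log scale, with Alb below the line and without Cfd and Fcnb; each point is 1 mouse and the dashed line marks 100%. From Hc down to Mbl1 the points of M10 and M12 sit near their Alb points and apart from the other 7 mice, while for C3, C1s1 and C3ar1 they lie at or near the range of the others. Values of 0 are drawn at the left end.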

How the data were processed

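The authors deposited 1 table for the series with, for each gene and library, raw read counts and RPKM values (reads per kilobase of gene, scaled to library size); HISAT2, HISAT, HTSeq 0.6.0 and mm10 are named in the submitters' processing notes, with no role given. RPKM recomputed from the deposited counts and gene lengths differed by at most 1.75e-06 in relative terms. Of 48897 table rows, 2 symbols appear on several rows, which were summed. Counts were tested with edgeR 4.0.16 (R 4.3.3; TMM scaling, quasi-likelihood test, two-sided, genes with 10 or more counts in 5 or more libraries, Benjamini-Hochberg over all genes tested, threshold 0.05), livers and tumor with matched liver in separate fits. The fit was tested on simulated data. All per-sample columns were mapped to samples. Mean, SD and range are of RPKM, and fold changes are from the counts. The SE of an edgeR fold change was derived as the absolute log2 fold change divided by the square root of the test's F statistic. Alternatives were DESeq2 1.42.0, limma 3.58.1 on log2(RPKM + 1) and log2(RPKM + 0.1), an exact two-sided Wilcoxon test, upper-quartile scaling, no filter, each mouse left out, clock phase, and the mouse as a block. Positions are mm10, as deposited.

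The 34 genes, the lists and the alternatives were chosen with earlier results of these data known. Statistics are printed for the 14 called genes with the largest fold change in each comparison and for those higher in the tumor (except 5 that passed the filter only through the livers, given by counts), the other called genes are given by range, and genes not called by name. Some results of the further list of complement genes are not reported here. Of the cell type lists, endothelial cells had 1 of 5 markers higher between the livers, epithelial cells 2 of 4 tested, mesothelial cells 3 of 4 and B cells 2 of 3. Tumor and liver libraries were paired by the mouse named in the labels. The correlation of their deviations from the group means over 12748 genes averaged 0.08 for the same mouse and -0.01 for different mice, and was over 0.1 in 4 of 9 pairs.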

Additional observations from a re-analysis of the deposited data

Results flagged for a closer look

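Over 102 groups of complement gene values (34 genes in 3 tissues), 12 had a highest or lowest library whose gap to the next on the log2(RPKM + 1) scale exceeded Dixon's 95% limit. For independent, normally distributed values chance alone passes it in about 1 group in 20. These genes share libraries and some are near 0, so the 12 are not read as an excess. In the control livers C3 was lowest in mouse C7 (1730 RPKM, others 2116 to 2142). Mouse C5 was lowest for C4bp (124.5 RPKM, others 217 to 252), C8a (90.1 RPKM, others 180 to 197) and Mbl1 (48.3 RPKM, others 84.7 to 99.4), and highest for Fcnb (0.0770 RPKM). Colec11 was lowest in control mouse C1 (10.3 RPKM, others 12.6 to 13.3). Leaving out C1, C5 or C7 changed no call of C3, C4bp, C8a, Mbl1 or Colec11.

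In the pre-metastatic livers C8a was lowest in mouse M6 (347 RPKM, others 442 to 490) and Cfd was highest in mouse M5 (3.11 RPKM, others up to 0.838). In the tumors complement C6 was highest in mouse M2 (2.16 RPKM, others up to 0.855), Colec10 in mouse M12 (0.0422 RPKM, others up to 0.0186) and Cd55 in mouse M12 (1.99 RPKM, others up to 0.644). C5ar1 was lowest in the tumor of mouse M4 (7.24 RPKM, others 12.7 to 17.9).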

How the results depend on the processing

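Between the livers 23 of 33 complement genes kept their direction and their side of the threshold in every alternative, and in the tumors 29 of 33. Genes called higher in the pre-metastatic liver numbered 1954 by the Wilcoxon test and 1658 without the 3 livers with adipocyte markers, which called 1038 lower. That alternative and those without mice M7 and M12 or M10 and M12 were chosen after seeing the data. Leaving out 1 mouse gave 0 to 1 complement genes lower, the 1 being Cfd without control mouse C4, C5 or C7 or mouse M5. In the tumors the RPKM scale called 13349 genes higher and 4169 lower with limma at a pseudocount of 1, 13443 and 4195 at 0.1, and 13307 and 4125 by the Wilcoxon test. The liver log2 fold changes that turned sign belong to genes not called: Colec10 (-0.078, -0.21 and -0.078 in those 3 alternatives), Colec11 (0.03 with upper-quartile scaling, 0.27 without mice M7 and M12, -0.117 to 0.13 with 1 mouse left out) and Cd59a (0.016, 0.002 and 0.062 with upper-quartile scaling, without M7 and M12 and without the adipocyte-marker livers, -0.05 to 0.05 with 1 mouse left out). Cfd in the tumors turned to 0.18, 0.57 and 0.18 on the RPKM scale, -1.237 to 0.597 with 1 mouse left out (the highest without mouse M5) and 0.153 with the replicate block, which pairs tumor and liver by mouse. The block called 8670 genes higher and 7659 lower and, of the complement genes, changed the call of Cfp alone. Depth limits Fcnb, Cd46, Cfd and the liver-made genes in the tumors, some with 0 counts in a library.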
